A study of Gallus gallus with 26 samples.

Results

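The genes described here were 39 named genes of the chicken Z chromosome, followed through the RNA of the developing joint and the cartilage beside it. A gene was kept where its symbol stood in the table of normalized read counts and its mean over the 6 libraries reached 100. Of the 39 symbols, 35 were in the table and 27 reached that mean, out of 15984 genes in all. NIPBL, SMAD4, ME2 and CHD1 matched no symbol of the table and were not analysed here, and the RefSeq annotation places SMAD4 on chromosome 25. RNA came from the hindlimb digit 3 of White Leghorn chick embryos after 7.5 days of incubation, at stage HH32. The joint interzone, the strip of cells from which the joint forms, was separated by microdissection from the adjacent proximal part of the phalange, and 3 Smart-seq2 libraries were made of each tissue. The labels name no treatment or modified gene and give no sex, and the number of embryos behind an RNA library is not given in the sources used here. Between 12431285 and 14347148 reads per library lay on genes.

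In birds, males carry a pair of Z chromosomes and females a single Z with a W. Dosage compensation of the Z chromosome is known to be partial and to act gene by gene, so that many Z-linked genes have a higher transcript level in males. A few Z-linked genes have kept a partner on W, and DMRT1, a dose-sensitive gene of testis development, lies on Z.

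The rule by which the genes were gathered set a pair of libraries, Interzone 1 and Phalange 1, against the other 4. It had named the pair beforehand as the libraries without W transcripts. The W-linked reads given here describe that choice and are no separate support for it. On the 19 genes that RefSeq places on W, Interzone 1 held 37 reads and Phalange 1 held 30 reads, while the other 4 libraries held between 6959 and 8036. HNRNPKL, the W-linked relative of the RNA-binding protein gene HNRNPK, stood at 21.4, 5550.1 and 4513 normalized counts in Interzone 1, 2 and 3, and at 28.0, 5932 and 4295 in Phalange 1, 2 and 3. Interzone 1 and Phalange 1 thus lay far below the rest, in both tissues. On the 571 Z-linked genes of the table the order was the opposite, with 4.06% of the reads of Interzone 1 and 4.02% of those of Phalange 1, against 2.57% to 2.75% in the other 4. The mean share of the pair was 1.53 times that of the 4. The ratio used below is the mean of Interzone 1 and Phalange 1 over the mean of the other 4 libraries. It follows the rule by which the genes were gathered, and the split is no group of the study, so it is given without a test. Both libraries without W reads are the replicate 1 of their tissue, and the presence of W and anything else that the replicates 1 share cannot be told apart.

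**Figure D1:**
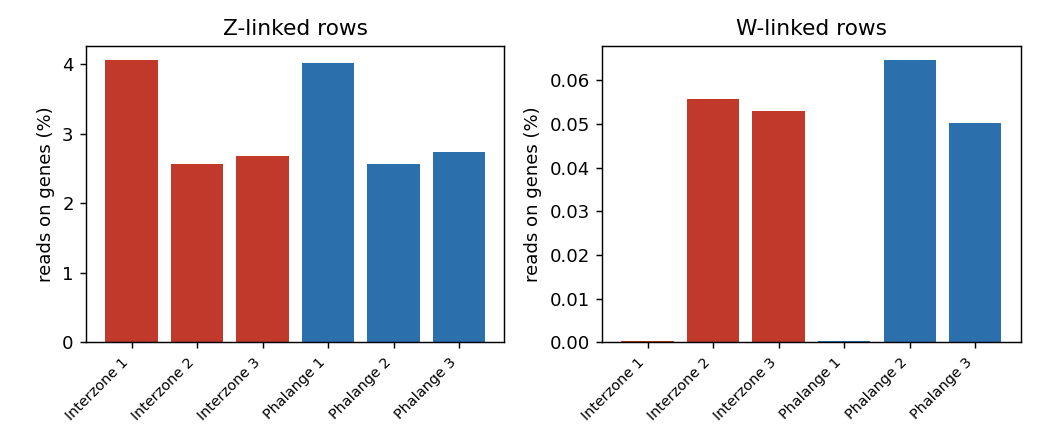
Share of the reads on genes, in percent, that fell on Z-linked genes (left) and on W-linked genes (right), with 1 bar for each library, interzone in red and phalange in blue. Interzone 1 and Phalange 1 have the highest Z share (4.06% and 4.02%) and almost no W reads (37 and 30).

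Across the 27 genes the median ratio was 1.37. Interzone 1 and Phalange 1 both lay above all of the other 4 libraries in 9 of the 27 genes (33.3%), against 8.16% of the 7863 genes with the same mean. Both lay below the other 4 in 1 of the 27, UBAP2, against 8.01% of all genes. The 9 were RASA1, SMAD2, TNPO1, XRCC4, HAUS1, CCNH, DNAJA1, RCL1 and GPBP1. Without UBAP2, whose row is described apart, the median was 1.38 and the quartiles were 1.09 and 1.55. The 289 other Z-linked genes had a median of 1.48, with 122 of them (42.2%) above in both libraries and 0 below. The 6757 autosomal genes had a median of 0.962, with 6.81% above and 8.08% below. Set over the autosomal median, the genes described here (without UBAP2) were at 1.43 and the other Z-linked genes at 1.54. Among the 28 autosomes with at least 50 genes, the medians ran from 0.922 on chromosome 3 to 1.03 on chromosome 26, and the highest share above was 12.8%. Chromosome Z, at 1.46 and 41.5%, lay outside both ranges.

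**Figure D2:**
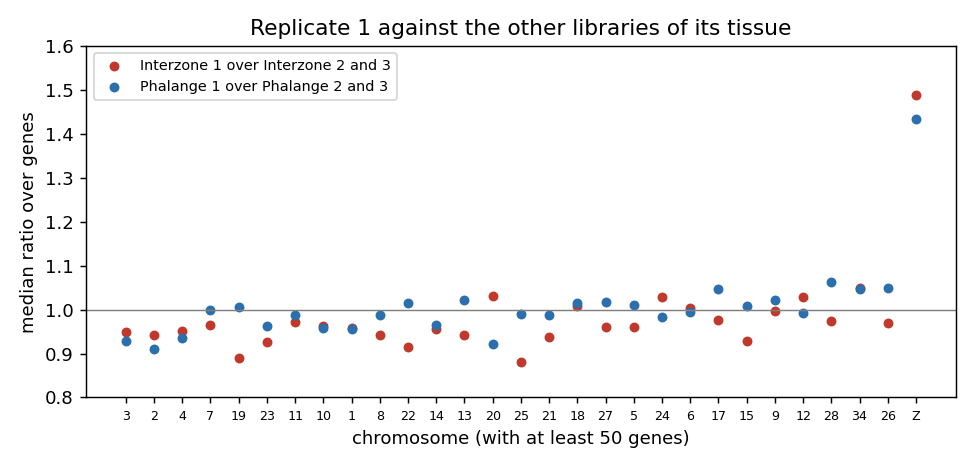
Median over genes of the level in replicate 1 divided by the mean of the other libraries of its tissue (y axis, no unit) for each chromosome with at least 50 genes, interzone in red and phalange in blue. Z lies apart from every autosome shown in both tissues, at 1.49 in interzone and 1.43 in phalange.

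The same order was seen library by library. Relative to its mean over the 4 libraries with W reads, the median gene (UBAP2 left out) stood at 1.43 in Interzone 1 and 1.28 in Phalange 1, while each of the other 4 libraries lay between 0.950 and 1.02 (SD 0.0308). These 4 were divided by their own mean, which holds them near 1, so their range is no yardstick for the pair. For autosomal genes the same medians were 0.953 and 0.958 in the pair. Marker genes of other cell types, summed over their lists, also differed between the pair and the 4 in some lists. The macrophage list (CSF1R, PTPRC and CD74, all in the table) was at 1322 to 1459 normalized counts in the pair and at 409 to 999 in the 4. The tendon list (SCX, TNMD and MKX, all in the table) was at 483 to 520.1 against 274 to 409.7. In both lists the pair did not overlap with the 4. The other lists overlapped between the pair and the 4. Skeletal muscle (7 of 7 in the table) was at 2576 to 8105 against 52.4 to 3112, red blood cells (4 of 8) at 33104 to 38892 against 688 to 50729, and endothelium (4 of 4) at 279 to 746 against 117 to 429. Epidermis (3 of 4) was at 124 to 189 against 130.1 to 286, and nerve (3 of 4) at 325 to 439.6 against 399.5 to 927. Within each tissue, skeletal muscle was highest in replicate 1. It was at 8105 against 1501 and 3112 in interzone, and at 2576 against 52.4 and 133 in phalange. In phalange, replicate 1 was highest for red blood cells (38892 against 688 and 8152) and endothelium (746 against 117 and 370). In interzone, replicate 3 was highest for both. For epidermis and nerve, replicate 1 was lowest in phalange and in between in interzone. The part of these cell types in the ratios was not tested. In bulk samples such as these, fewer cells of a type and less RNA in each cell cannot be told apart.

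**Figure D3:**
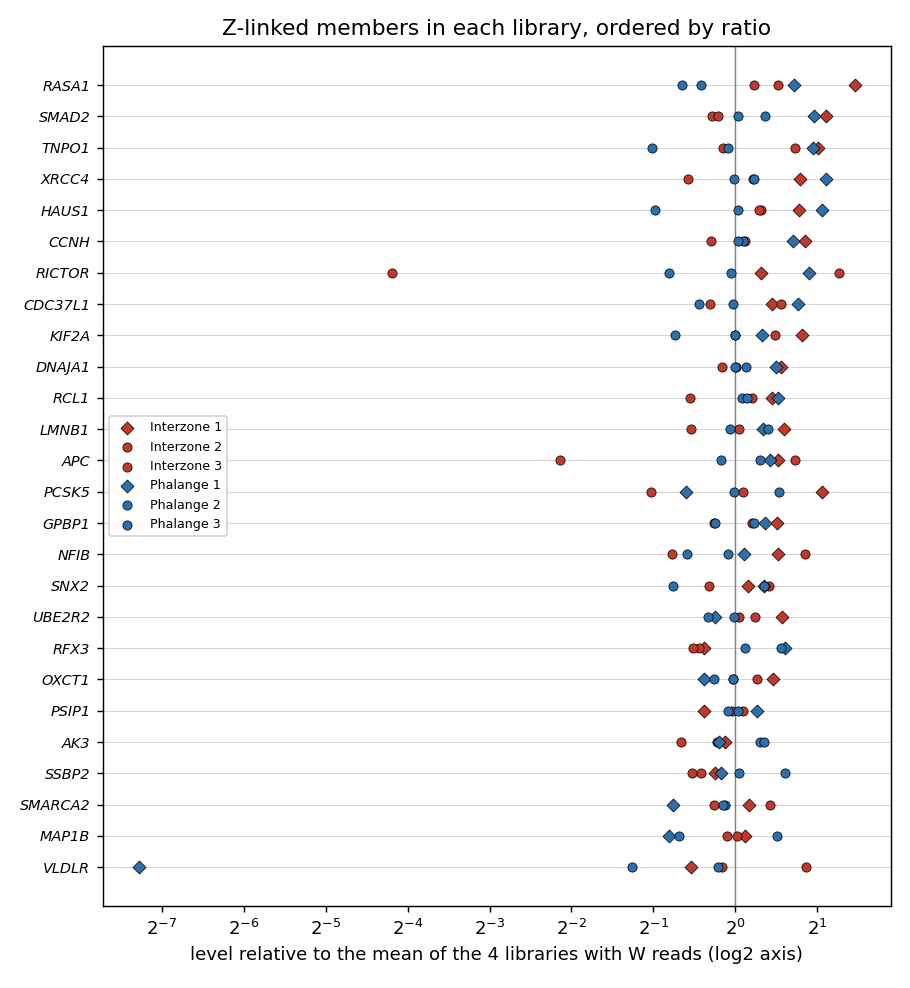
Level of each gene in each library divided by its mean over the 4 libraries with W reads (log2 axis), ordered from the highest ratio at the top, with diamonds for Interzone 1 and Phalange 1, circles for the other 4, red for interzone and blue for phalange. UBAP2 is left out. The diamonds lie right of every circle in 9 genes, and the far left diamond of VLDLR stands for 1 read.

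SMAD2, which carries activin and TGF-beta signals into the nucleus, is among the genes with a known partner on W. It stood at 2358, 895 and 944 normalized counts in Interzone 1, 2 and 3 and at 2114, 1120.1 and 1399 in Phalange 1, 2 and 3. Each library of the pair was above every other library, and the ratio was 2.05. It was 2.56 within interzone and 1.68 within phalange.

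Among genes of signalling, RASA1, a GTPase-activating protein that switches Ras off and that also has a W partner, had the highest ratio of the 27. Its level was 531, 227 and 278 in interzone and 317, 123 and 145 in phalange. The pair lay above the other 4, with a ratio of 2.20, though Phalange 1 (317) was close to Interzone 3 (278). Within each tissue the first library stood apart from its neighbours, by 2.10 in interzone and 2.38 in phalange. APC, which helps to degrade beta-catenin, was at 469, 74.3 and 541 in interzone and 439 (Phalange 1), 405 and 289 in phalange. Interzone 2 was far below the other libraries and Interzone 3 was above the pair, so the groups overlapped, at a ratio of 1.39. RICTOR, a subunit of an mTOR complex, was at 188, 8.26 and 364 in interzone and at 282, 146 and 86.2 in phalange. Its ratio of 1.55 came with a coefficient of variation of 101% over the 4 libraries, and Interzone 3 was above both libraries of the pair. Without Interzone 3 the ratio was 2.93, and without Interzone 2, the lowest library, it was 1.18. It was 1.01 within interzone and 2.43 within phalange.

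Genes of chromatin, transcription and DNA repair ran from a ratio of 0.856 to 1.95, with a median of 1.20 over 8 genes. XRCC4, which acts in the joining of DNA double-strand breaks, stood at 1163, 448 and 782 in interzone and at 1453, 787 and 666 in phalange. Both libraries of the pair were above the rest, and the ratio was nearly the same in interzone, 1.89, and in phalange, 2.00. CCNH, the cyclin of the kinase that activates other cyclin-dependent kinases, was at 2137, 965 and 1288 in interzone and 1936, 1267 and 1213 in phalange. The pair was above the 4 here too, at a ratio of 1.72. GPBP1, a promoter-binding protein, was the third gene of the group with the pair above, at a ratio of 1.35. Its Phalange 1 (565) was close to Phalange 2 (516). NFIB, a nuclear factor I protein, had a ratio of 1.26 with overlapping libraries.

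The same group held genes near or below a ratio of 1. PSIP1, a chromatin-bound coactivator, was at 1410.1, 1777 and 1950.0 in interzone and at 2211, 1724 and 1879 in phalange. Interzone 1 was the lowest of the 6 libraries and Phalange 1 the highest, and the ratio was 0.988. With library totals in place of size factors it was 1.03, the only one of the 27 ratios to cross 1 under another scaling. SMARCA2, an ATPase of the BAF chromatin remodelling complexes, was at 7094, 8510.0 and 5306 in interzone and 3753, 5812 and 5707 in phalange. Phalange 1 was the lowest library and Interzone 1 lay within the range of its tissue, at a ratio of 0.856. SSBP2, a partner of LIM-domain cofactors, and RFX3, a transcription factor of ciliogenesis, had ratios of 0.867 and 1.15 and are given with the tissues below.

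The 3 genes of metabolism had a median ratio of 0.895. In none of them was the pair above the 4, against 8.16% of all genes with the same mean. With only 3 genes, that count does not set the group apart. OXCT1 had a ratio of 1.07 and is given with the tissues below. AK3, a mitochondrial adenylate kinase, was at 473, 441 and 327 in interzone and at 450.2, 638 and 658 in phalange, at a ratio of 0.895. Interzone 1 was the highest of its tissue and Phalange 1 the lowest of its own. VLDLR, a receptor for lipoproteins and reelin, was at 107, 284 and 139 in interzone and at 1.00, 65.0 and 134 in phalange. The value of Phalange 1 stands for 1 read, and both tissues held their lowest value in the pair, at a ratio of 0.35. Without Phalange 1 the ratio was 0.689, and without Interzone 1 it would rest on that 1 read.

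Of the 8 genes for protein handling, RNA and transport, TNPO1, a nuclear import receptor, had the highest ratio, 1.97. It was at 226, 187 and 102 in interzone and at 217, 55.6 and 106 in phalange, with the pair above the 4 though Interzone 2 was close. DNAJA1, a heat-shock co-chaperone, was at 5133, 3103 and 3495 in interzone and at 4896, 3469 and 3814 in phalange. The 4 libraries with W reads varied by 8.37% (coefficient of variation), and the pair stood above them at a ratio of 1.44. RCL1, a factor of ribosomal RNA processing, was the third with the pair above, at 1.40, and CDC37L1, a co-chaperone, and SNX2, a sorting nexin, had 1.53 and 1.19 with overlap. PCSK5, a proprotein convertase, was at 2813, 1443 and 663 in interzone and at 889.5, 1969 and 1342 in phalange. Interzone 1 was the highest library of the 6 and Phalange 1 the lowest of its tissue, so its ratio of 1.37 joined 2.67 in interzone with 0.537 in phalange. It was 0.657 without Interzone 1 and 2.08 without Phalange 1.

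Genes of the cytoskeleton and nucleus were led by HAUS1, a subunit of the augmin complex of the mitotic spindle. It was at 1148, 831 and 814 in interzone and 1397, 339.8 and 686 in phalange. The pair was above the 4 and the ratio was 1.91. KIF2A, a kinesin that depolymerises microtubules, and LMNB1, a lamin of the nuclear envelope, had ratios of 1.51 and 1.39, each with 1 of the 4 libraries reaching above a library of the pair. MAP1B, a microtubule-associated protein, was at 524, 447 and 488 in interzone and at 274, 299 and 686 in phalange. Phalange 1 was the lowest library of the 6, and the ratio was 0.83. Without Phalange 3, the highest library, the ratio was 0.969, and without Phalange 1 it was 1.09.

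UBAP2, a ubiquitin-associated protein, followed the W-linked genes. Its row was at 0, 873 and 645 in interzone and at 0.998, 592 and 936 in phalange. Interzone 1 thus held 0 reads and Phalange 1 held 1 read, while the other 4 libraries lay between 592 and 936. RefSeq lists the symbol UBAP2 on Z and also as an older name of UBAP2L2 on W, so the symbol alone does not say which copy the row measured. A search of the whole table for rows at or below 2% of the lowest of the other 4 in both libraries of the pair, with the other 4 at 20 or more, was chosen after the values were seen. It found 27 rows, of which 8 are placed on W, 17 have no symbol and 2 carry a Z symbol, UBAP2 and ATP6AP1L. The reverse pattern was found in 14 rows, 2 of them on Z.

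The rows of SMAD2, RASA1 and UBE2R2, which also have a W partner, did not share that pattern. UBE2R2, a ubiquitin-conjugating enzyme, was at 1989, 1588 and 1377 in interzone and at 1123, 1060.3 and 1324 in phalange, at a ratio of 1.16. Interzone 1 was the highest library and Phalange 1 lay between Phalange 2 and Phalange 3. For the absent Z symbols NIPBL and CHD1, W rows were in the table. LOC427025, listed with NIPBL among its older names, was at 1.79, 426 and 232 in interzone and at 0, 576 and 452 in phalange. LOC374195, listed with CHD1W among its older names, was at 2.68, 302 and 355 in interzone and at 0, 480.3 and 508 in phalange. Each was near or at 0 in the pair alone. Reads from near-identical Z and W copies can be placed on either, so the levels of SMAD2, RASA1 and UBE2R2 are uncertain for that reason.

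The 8 genes below the minimum mean were JAK2, IL6ST, VPS13A, GNAQ, MAP3K1, NTRK2, HMGCS1 and GHR. Nearest outside it were JAK2, a kinase of cytokine receptors, with a mean of 87.6, IL6ST, the shared receptor of the interleukin 6 family, with 84.5, and VPS13A with 84.0, while VLDLR with 122 and CDC37L1 with 138 were nearest inside. JAK2 was at 30.4, 263 and 28.2 in interzone and 56.9, 125 and 22.0 in phalange, with the highest values in both replicates 2. NTRK2 had reads in Phalange 3 alone (24 reads), HMGCS1 had 0 to 7 reads and GHR 0 to 3 reads in a library. These 8 genes are outside the counts and medians given for the 27.

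Within the tissues, Interzone 1 was above Interzone 2 and 3 in 18 of the 27 genes (background 27.7% of all genes), and Phalange 1 was above Phalange 2 and 3 in 16 (background 34%). The median ratio was 1.34 within interzone and 1.27 within phalange. The ratio exceeded 1 in both tissues in 17 of the 26 genes other than UBAP2 (65.4%), as it did in 69.9% of the other Z-linked genes and in 24.6% of the autosomal genes. In 6 of the 27 genes, PCSK5, OXCT1, PSIP1, AK3, SSBP2 and MAP1B, replicate 1 lay above both of the other libraries in one tissue and below both in the other, against 14.2% of all genes.

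**Figure D4:**
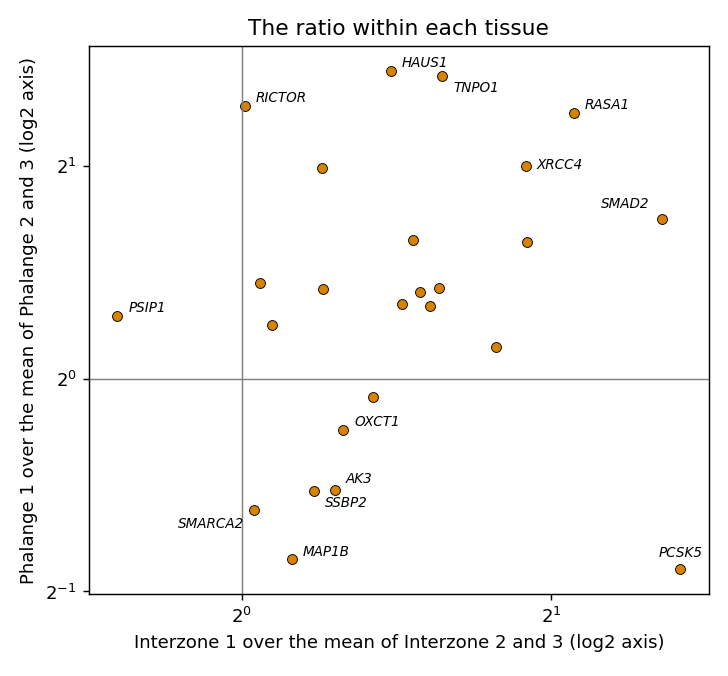
Ratio within interzone (Interzone 1 over the mean of Interzone 2 and 3, x axis) against the ratio within phalange (Phalange 1 over the mean of Phalange 2 and 3, y axis), both on log2 axes, with 1 point for each gene. UBAP2 and VLDLR, whose Phalange 1 values rest on 1 read each, are left out, and PCSK5 at 2.67 and 0.537 is the point at the lower right.

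Whether tissue mattered was tested with limma over 11928 genes, interzone against phalange, with 3 libraries each. None of the 27 genes was called (adjusted p under 0.05 and a log2 fold change beyond 0.5), and the background of calls was 0.0252% (3 genes, all higher in phalange). At an unadjusted p under 0.05 the count was 2 of the 27, against 6.46% of all genes tested, and edgeR and DESeq2 also called 0 of the 27. DESeq2 called 152 of the 11384 genes to which it gave an adjusted p (1.34%). With so few limma calls over all genes, the lack of calls among the 27 does not show that tissue has no effect on them. The main fit also held no term for the split between the pair and the 4 libraries with W reads. That difference therefore counted as spread within each tissue. A limma fit with a replicate block, which sets the replicates 1 apart, also called 0 of the 27. The median log2 fold change, interzone over phalange, was 0.03 for the 27 and -0.01 for all genes with a mean of at least 100. The tissues did not overlap in 4 of the 27 genes, against 11% of all genes.

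RFX3 was at 379, 363 and 345 in interzone and at 751, 534 and 729 in phalange. Every phalange library was above every interzone library, with a log2 fold change of -0.87 (SE 0.28, limma adjusted p = 0.589, unadjusted 0.0125). SSBP2 was at 5785, 5109 and 4737 in interzone and at 6077, 7092 and 10437 in phalange, again with no overlap, and its log2 fold change was -0.56 (SE 0.22, limma adjusted p = 0.712). Without Phalange 3, the highest library, it was -0.34. The opposite order was seen for UBE2R2, whose interzone libraries were all above the phalange libraries, with 0.49 (SE 0.23, limma adjusted p = 0.80). OXCT1, the enzyme by which tissues use ketone bodies, was at 1360.0, 975 and 1192 in interzone and at 759, 824 and 969.8 in phalange, with 0.46 (SE 0.24, limma adjusted p = 0.86). Its tissues did not overlap, though Interzone 2 and Phalange 3 were close. None of the 4 differences passed the test. RASA1, with a log2 fold change of 0.85 (SE 0.51), had a limma adjusted p of 0.894, and of 0.709 with the replicate block.

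The order of the genes along Z was taken from RefSeq. Over 313 Z-linked genes, with UBAP2 left out, a running median of 15 genes ranged from 1.07 to 1.88. The lowest values were centred on PUM3, RFX3, CDC37L1, AK3, RCL1, KIAA2026, UHRF2 and MPDZ, in the stretch from KANK1 to NFIB. That stretch, chosen after the values were seen and given without a test, held 15 genes with a median of 1.07, and 7 of the genes described here, SMARCA2, VLDLR, RFX3, CDC37L1, AK3, RCL1 and NFIB. Their median was 1.15, and the pair was above the 4 in 1 of the 7 (14.3%), RCL1, against 8.16% of all genes. The 19 other genes in the order had a median of 1.39, with the pair above in 8 (42.1%). The 298 genes of the rest of Z had a median of 1.49, with 43.3% above, against 6.67% of the 15 genes of the stretch. DMRT1 lies between KANK1 and SMARCA2 in the RefSeq order and was not analysed here.

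**Figure D5:**
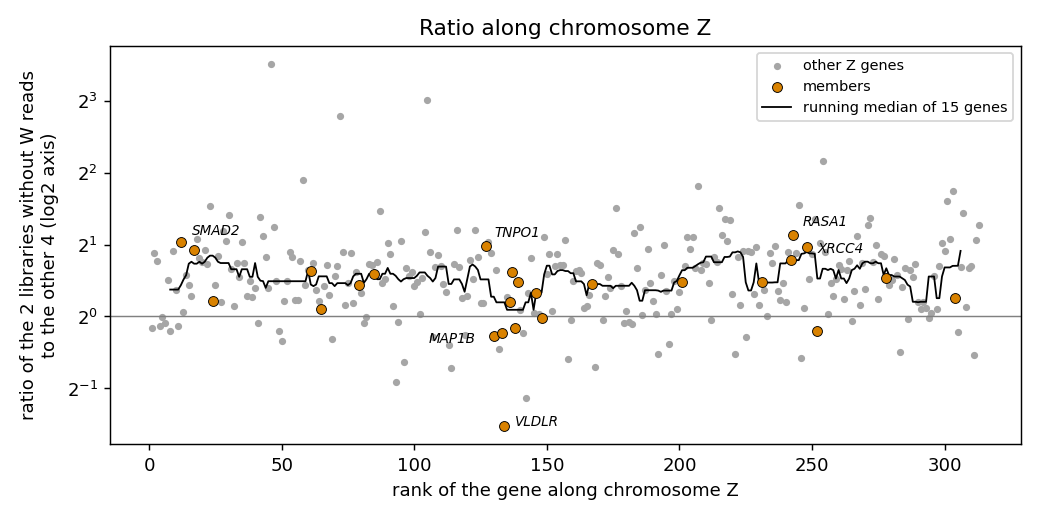
Ratio of Interzone 1 and Phalange 1 to the other 4 libraries (log2 axis) against the rank of each of 313 genes along chromosome Z, with the genes described here in orange, other Z-linked genes in grey and the running median of 15 genes as a line. UBAP2 is left out. The line stays above 1 throughout, from 1.07 to 1.88.

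The coefficient of variation over the 4 libraries with W reads, which covers both tissues as well as error, had a median of 48.4% in the 5 genes with a mean of 100 to 300, 32.1% in the 8 genes of 300 to 1000, 20.9% in the 9 genes of 1000 to 3000 and 30.6% in the 4 genes at 3000 or above. UBAP2 was left out of these classes. The coefficient of variation thus fell over the first 3 classes and was higher again in the last, which holds only 4 genes. At 3000 or above the same median was 16.9% in the other Z-linked genes and 15.6% in the autosomal genes. The median ratios of the 4 classes were 1.55, 1.37, 1.37 and 1.06, and the 25 other Z-linked genes at 3000 or above had 1.64.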

How the data were processed

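RNA was measured in 3 interzone and 3 phalange libraries, grouped by the sample labels. The authors trimmed reads with Trimmomatic, mapped them with STAR to Gallus gallus 6.0, counted them with featureCounts on the Ensembl annotation and deposited a signal, counts divided by size factors. Smart-seq2 keeps no strand, so overlapping genes may share reads. Reads were recovered as whole multiples (100% within 0.01 of a whole number), with 12431285 to 14347148 reads on genes per library. PCR copies are counted, and p-values measure the spread between these libraries.

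The study tested tissue with DESeq2 and, at the same thresholds, reported more genes in each direction than limma called here. Here log2(normalized count + 1) was tested with limma 3.58.1 (R 4.3.3), keeping genes whose mean reached 10, with Benjamini-Hochberg adjustment. edgeR 4.0.16 and DESeq2 1.42.0 on recovered reads, another pseudocount, other filters and scalings, a replicate block and leaving out libraries were alternatives. The scripts were tested on simulated data. The changes planted for the tissue fits were large, so that test does not show their power for smaller differences.

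The members and lists were chosen with earlier results of these data known. Named were members with a W partner, the 5 highest and 5 lowest ratios, the 4 smallest tissue p-values and examples of each role. Chromosomes came from RefSeq (GRCg7b) by symbol, for 11712 of 15984 genes, and 3958 genes had no symbol. Only the order of genes along Z was taken from that build, which differs from the build of the files, and no coordinates are printed. Marker lists of the dissected tissues gave 19535 to 99109 normalized counts in interzone against 5280 to 8220 in phalange for GDF5, ENPP2, ERG and COL3A1, and 10090 to 22472 against 28299 to 51539 for the 6 cartilage genes. Peak files were not used.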

Additional observations from a re-analysis of the deposited data

Results flagged for a closer look

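In 6 genes, replicate 1 moved one way against both other libraries in interzone and the opposite way in phalange. The ratio was 2.67 in interzone and 0.537 in phalange for PCSK5, 1.26 and 0.846 for OXCT1, and 0.757 and 1.23 for PSIP1. It was 1.23 and 0.695 for AK3, 1.18 and 0.693 for SSBP2, and 1.12 and 0.555 for MAP1B. The difference between the tissues was not tested, since each tissue has 1 library without W reads. The same pattern was seen in 1117 of 7863 genes (14.2%), and here in 6 of 27 (22.2%).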

How the results depend on the processing

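None of the 27 genes was called by tissue under any alternative run. Over 15 fits the adjusted p ranged from 0.162 to 0.932 for RFX3, 0.373 to 0.999 for SSBP2, 0.639 to 0.999 for UBE2R2 and 0.772 to 0.999 for OXCT1. Their log2 fold changes ranged from -1.03 to -0.78, -0.81 to -0.34, 0.32 to 0.61 and 0.27 to 0.59. Over all genes, the calls higher in interzone (0) and in phalange (3) became 104 and 48 with DESeq2, 0 and 1 with edgeR, 1 and 5 with a pseudocount of 10, 2 and 5 with a mean of at least 100, and 0 and 0 without replicate 1 of both tissues. Leaving out 1 library gave 0 to 6 in interzone and 0 to 5 in phalange (6 and 5 without Phalange 1, 0 and 5 without Interzone 2, and 0 and 0 without each of the other 4). The cause was not tested. The replicate block gave 0 and 1. Deviations of same-numbered libraries correlated across 7863 genes at 0.32, 0.10 and 0.03, and across autosomal genes at 0.16, 0.07 and -0.01. Interzone 2 correlated best with Phalange 3 (0.13, and 0.08 for autosomal genes). The paper joins samples of the same embryo in its RT-qPCR but does not say so for the RNA-seq libraries. Pairing was left unsettled, and the numbers were not taken as pairs in the main fit.

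The median ratio of 1.37 was 1.42 with library totals in place of size factors (all genes: 1.01 in place of 0.969), 1.30 with a minimum mean of 10 (32 genes), 1.31 with one of 500 (18 genes) and 1.24 to 1.43 with 1 library left out. The count of genes above was 9 to 14 with 1 library left out. It was 14 without Phalange 1, where Interzone 1 alone is set against the 4 (background 16.7%). Without Interzone 1, where Phalange 1 alone is set against the 4, it was 12 (background 18.9%). With 1 of the 4 left out it was 9 to 13, and the share over all genes was not computed there. Leaving out a library makes the criterion easier to meet. In 8 of the 27 genes, MAP1B, OXCT1, PCSK5, PSIP1, RFX3, SMARCA2, SSBP2 and UBE2R2, the ratio crossed 1 in some alternative, and in 19 it did not. Of those 19, AK3, VLDLR and UBAP2 stayed below 1 and the rest stayed above. VLDLR and UBAP2 reached the minimum mean only through the 4 libraries with W reads, with means there of 156 and 761. Their means over the pair were 54.1 and 0.499. A gene whose pair lies under the minimum mean is kept only if its ratio is below 1. The UBAP2 row may also measure the W copy, so its ratio cannot be read as that of a Z-linked gene.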
